A study of Mus musculus with 53 samples.

Results

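Whole corneas of mouse embryos at embryonic day 15.5 (E15.5) were compared with whole corneas at embryonic day 14.5 (E14.5), with 3 arrays at each age. These 6 arrays were taken, by their titles, out of 53 samples of mouse epithelial tissues, and they belong to the 27 samples measured on the Mouse Gene ST type of array. All animals behind the E15.5 and the E14.5 arrays were wildtype mice of the CB6 background, and total RNA was taken from the whole cornea, so epithelium, stroma, the inner endothelial layer and any attached tissue were measured together. All 19938 genes that could be named on this array type were examined, each through its brightest probe set. The arrays of an age carry replicate numbers 1 to 3 in the labels and are called array 1, 2 and 3 here. Whether they came from separate animals or litters, whether embryos were pooled, and the sex of the embryos are not stated. Each p-value therefore reflects array-to-array spread alone, which may in part be technical. That spread was estimated over all 27 arrays in 9 groups, not over these 6 alone. For genes that split the E14.5 arrays it can be smaller than the spread within that age.

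The cornea is built from a surface ectoderm that becomes a stratified epithelium and from neural crest cells of the periocular mesenchyme that become stromal keratocytes and the endothelium. Corneal epithelium is known for the keratin Krt12, and the stroma for regularly spaced collagen fibrils kept apart by small leucine-rich proteoglycans that carry keratan sulfate. The lens lies directly behind the cornea, and embryonic blood, iris, eyelid and retina lie close by, so RNA of these tissues can enter a dissected sample.

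Levels are log2 intensities after quantile normalization, and an intensity of 0 becomes a level of 4, called the floor here. A change is the mean of the E15.5 arrays minus the mean of the E14.5 arrays. A gene was called higher or lower where its Benjamini-Hochberg adjusted p in limma was under 0.05 and the change was at least 2-fold. By this rule 1507 of 19938 genes were called (7.56%), of which 1057 were higher at E15.5 (5.3% of all genes) and 450 lower (2.26%). Over all genes the median change was -0.02. The 3 arrays of one age did not overlap with the 3 of the other for 1024 of the higher and 415 of the lower genes, and also for 6675 of the 18431 genes not called.

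The arrays of E15.5 resembled each other more than those of E14.5 did. Over genes, pairs of E15.5 arrays correlated at 0.970 to 0.980, and at E14.5 arrays 1 and 2 correlated at 0.967, arrays 1 and 3 at 0.925 and arrays 2 and 3 at 0.941. On E14.5 array 3, 42 genes stood at least 4-fold above both other E14.5 arrays and 81 at least 4-fold below both, against 11 and 23 on array 1 and 8 and 2 on array 2. On E15.5 array 1, 43 genes stood at least 4-fold above both other E15.5 arrays and 1 below, and arrays 2 and 3 had at most 4 in either direction. The main genes below are therefore given array by array, and calls were also made without E14.5 array 3. Xist, the RNA of the inactive X chromosome, and the Y-linked Kdm5d were both at 8.72 or above on E15.5 array 2 (Xist 8.72, Kdm5d 10.06) and on E14.5 arrays 1 (12.18 and 8.92) and 2 (9.33 and 10.51).

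**Figure D1:**
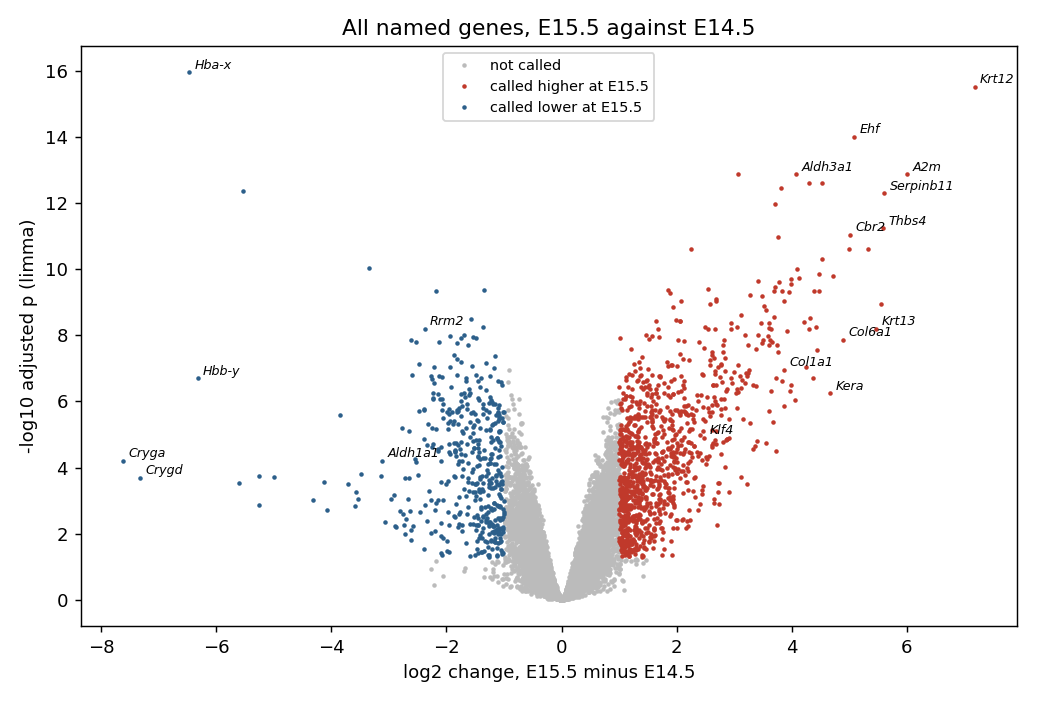
Change of each of the 19938 named genes on the x axis (log2, E15.5 minus E14.5) against -log10 of its adjusted p in limma on the y axis. Red points are the 1057 genes called higher at E15.5, blue points the 450 called lower and grey points the genes not called, with Krt12 at the far right and Cryga, Crygd, Hba-x and Hbb-y at the far left.

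The programme of the corneal epithelium was clearly present on every E15.5 array, while several of its leading genes, Krt12 first, had levels of about 6 on every E14.5 array. Of 15 measured genes of the corneal epithelium list, 12 were called higher and none lower, with a median change of 2.00 against -0.02 over all genes. All 12 were past 2-fold against each E14.5 array taken alone. Without E14.5 array 3, Perp lost its call and Pax6 gained one. In bulk RNA fewer cells of a type and less RNA per cell cannot be told apart, here or in any list below. Krt12, the keratin whose mutation in humans causes Meesmann corneal dystrophy, had levels of 12.75, 13.37 and 13.38 at E15.5, against 6.00, 6.04 and 5.92 at E14.5. The lowest E15.5 array lay more than 6 log2 units above the highest E14.5 array, and the change of 7.18 (145-fold, adjusted p = 2.99e-16) was the largest increase among named genes. Ehf, an Ets-family transcription factor of epithelia, was at 10.44, 11.24 and 11.01 at E15.5, against 5.75, 5.72 and 5.98 at E14.5 (33.8-fold, adjusted p = 9.86e-15). Mal, a membrane protein of apical transport, was at 11.03, 11.76 and 11.76 against 7.01, 7.15 and 6.82 (23-fold). These genes shared 1 pattern, with 3 low and nearly equal E14.5 arrays and E15.5 array 1 a little below arrays 2 and 3.

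Aldh3a1, the aldehyde dehydrogenase stored at high levels in adult mouse corneal epithelium, was at 9.75, 10.14 and 10.46 at E15.5, against 6.06, 6.08 and 5.98 at E14.5 (16.9-fold, adjusted p = 1.34e-13). Lypd2, a gene of the Ly6 family, was at 10.76, 11.55 and 11.74 against 7.63, 7.34 and 7.49 (14.5-fold). Upk1b, a tetraspanin known from urothelium and cornea, was at 11.80, 12.35 and 12.41 at E15.5, against 8.21, 9.11 and 7.41 at E14.5 (15.4-fold). Klf4, a zinc-finger factor needed in mice for normal corneal epithelium, was at 8.92, 9.12 and 9.23 at E15.5, against 6.66, 7.73 and 5.45 at E14.5 (5.58-fold, adjusted p = 1.23e-05). Klf4 and Upk1b thus differed among the E14.5 arrays, with array 2 highest and array 3 lowest. Pax6, the eye master regulator that surface ectoderm, lens and retina all express, was at 11.40, 12.15 and 12.10 at E15.5, against 10.44, 10.96 and 11.73 at E14.5. The ages overlapped for Pax6 because of E14.5 array 3, and the change of 0.84 (adjusted p = 0.0117) was under 2-fold, whereas it was 1.18 and called without that array.

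The start of Krt12 is shown because this gene changed most and because zinc-finger factors of the KLF family, such as Klf4, can bind CACCC boxes. The 250 bases before the RefSeq start of Krt12 (GRCm38.p6, chr11:99422260-99422509, minus strand, 5′ to 3′) have CACCC, or its complement GGGTG, in capitals.
Krt12: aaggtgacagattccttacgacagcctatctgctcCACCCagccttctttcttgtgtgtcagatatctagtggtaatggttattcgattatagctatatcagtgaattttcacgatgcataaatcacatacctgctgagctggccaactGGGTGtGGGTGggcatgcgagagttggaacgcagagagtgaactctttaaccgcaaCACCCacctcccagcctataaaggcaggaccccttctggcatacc
The window holds 4 such boxes, 2 on each strand, the nearest of them 40 bases before the start. CACCC was searched on both strands, and 51.3% of 27025 mouse promoters of this length hold it at least once, so its presence does not set Krt12 apart.

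Several keratins of stratified and mucosal surfaces rose too. Of 15 measured stratified and mucosal keratins 7 were called higher and none lower (median change 0.72). Krt13, a keratin of suprabasal mucosal cells, was at 9.81, 11.10 and 10.87 at E15.5, against 5.27, 4.56 and 5.56 at E14.5 (44.1-fold, adjusted p = 6.41e-09). Krt6a, known from hyperproliferative and mucosal epithelia, was at 10.63, 11.80 and 11.77 against 6.75, 5.57 and 5.93 (39.9-fold), and Krt6b changed 17.4-fold. Krt19 (7.47-fold), Krt7 (5.16-fold) and Krt80 (3.67-fold) were called too, with Krt7 at 10.52, 11.31 and 11.25 at E15.5, against 9.12, 9.69 and 7.17 at E14.5. For Krt13, Krt6a and Krt6b no E14.5 array came within 2-fold of the E15.5 mean.

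Protease inhibitors gave some of the largest increases. Of 23 clade B serpins and surface serine proteases, 13 were called higher and none lower (median change 1.16). Serpinb11 was at 9.99, 10.75 and 10.53 at E15.5, against 5.07, 4.88 and 4.50 at E14.5 (48.8-fold, adjusted p = 5.07e-13). Serpinb3a was at 9.15, 10.46 and 9.78 against 4.50, 4.00 and 4.23 (46.9-fold), so that E14.5 array 2 was at the floor. Serpinb5, the gene of maspin, was at 9.77, 10.66 and 10.63 against 5.95, 4.86 and 5.27 (31.8-fold). A2m, the broad-range plasma and tissue protease inhibitor alpha-2-macroglobulin, was at 12.29, 12.56 and 13.01 against 7.02, 6.44 and 6.39 (64.1-fold, adjusted p = 1.34e-13). The membrane proteases Tmprss11g (8.4-fold), Tmprss11b (8.27-fold) and Tmprss11d (3.88-fold) were also higher, all from E14.5 levels under 6 on each array. Folds of genes this near the floor depend on the pseudocount.

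Of 24 genes of late epidermal differentiation and the cornified envelope, 6 were called higher and none lower, and the median change of 0.13 was close to that of all genes. The 6 were Csta1, a cystatin that inhibits cysteine proteases (9.24, 10.05 and 9.64 at E15.5, against 4.87, 4.77 and 5.12 at E14.5, 26.3-fold), the retroviral-like aspartic protease Asprv1 (19.7-fold), Krtdap (12-fold), Sbsn (4.17-fold), the envelope precursor Sprr1a (3.71-fold) and the crosslinking enzyme Tgm1 (2.77-fold, not called without E14.5 array 3). The classic epidermal genes on the list, picked here after their values were seen, were not among them. The changes were 0.64 for Krt1, 0.15 for Krt10, 0.46 for the loricrin gene Lor, 0.29 for the involucrin gene Ivl and -0.14 for Flg2.

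Desmosomes, the junctions that tie keratin filaments of neighbouring cells together, were the other epithelial group with a large median change (2.30), and 8 of 11 genes were called higher and none lower. The desmosomal cadherin Dsg3 was at 10.35, 11.28 and 11.38 at E15.5, against 7.60, 7.89 and 5.59 at E14.5 (15.8-fold, adjusted p = 3.2e-07). Dsc3, another desmosomal cadherin, was at 10.14, 11.15 and 11.14 against 8.15, 7.29 and 5.51 (14.2-fold). The plakin Ppl (13.3-fold), the cadherin Dsc2 (10.5-fold), the desmoplakin gene Dsp (7.36-fold) and the plakoglobin gene Jup (4.94-fold) followed. In each of these 6 genes E14.5 array 3 was the lowest of the E14.5 arrays, and each stayed called without it.

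Basal cell genes were already expressed at E14.5. Of 15 genes of basal stratified epithelium and hemidesmosomes, 8 were called higher (median change 1.29) and 6 without E14.5 array 3. Krt15 was at 13.04, 13.42 and 13.31 at E15.5, against 9.65, 9.66 and 9.03 at E14.5 (14-fold, adjusted p = 3.41e-13). Krt5, the keratin of basal cells, was at 13.22, 13.59 and 13.47 against 11.41, 11.46 and 9.09 (6.85-fold, adjusted p = 3.83e-05). The integrin subunit gene Itgb4 (4.14-fold), the laminin gene Lama3 (4.08-fold), Plec (3.8-fold) and the hemidesmosomal collagen Col17a1 (3.32-fold) were also higher. Krt15 therefore changed by a like amount against each E14.5 array, and Krt5 by more against array 3.

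A further set of epithelial genes was lower on E14.5 array 3 than on arrays 1 and 2, which lay closer to E15.5. Trp63, the master regulator of stratified epithelia, was at 10.32, 11.19 and 11.09 at E15.5, against 10.29, 10.59 and 7.85 at E14.5. Its call (change 1.29, adjusted p = 0.0311) was lost without E14.5 array 3, where the change was 0.42. Grhl3, a grainyhead factor of barrier formation, was at 9.15, 9.85 and 9.76 at E15.5, against 9.68, 9.84 and 7.72 at E14.5, and was not called (0.51, adjusted p = 0.37). Picked after their values were seen, Krt14 (11.23, 11.95 and 12.11 against 10.72, 11.13 and 8.64), Cdh1, the gene of E-cadherin (10.52, 11.12 and 11.11 against 10.10, 10.30 and 7.80), and Epcam (10.61, 10.52 and 10.77 against 10.75, 10.88 and 9.27) were also lowest on array 3. Without E14.5 array 3 none of Krt14 (0.84), Cdh1 (0.71) and Epcam (-0.18) was called.

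Of 18 genes of adherens and tight junctions 8 were called higher and none lower with all arrays (median change 0.83), against 7 higher and 1 lower without E14.5 array 3. The tight-junction claudin Cldn1 was at 10.68, 11.04 and 11.20 at E15.5, against 8.90, 8.70 and 7.91 at E14.5 (5.52-fold, adjusted p = 1.58e-07). F11r (5.43-fold), Cldn23 (4.94-fold), the occludin gene Ocln (4.41-fold), Cldn7 (3.64-fold) and Cldn4 (2.95-fold) were higher and stayed called without E14.5 array 3. The gene lower without it was the connexin gene Gjb6, named for that reason, at 7.29, 7.31 and 7.67 against 8.48, 8.91 and 7.79.

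Among 27 epithelial transcription factors and splicing regulators, 10 were called higher and none lower (median change 0.85). Besides Ehf and Klf4 these were Zfp750, a driver of terminal differentiation in epidermis (10.04, 10.90 and 10.84 at E15.5, against 7.83, 8.95 and 7.14 at E14.5, 6.14-fold), Klf5 (9.45, 10.30 and 10.47 against 7.37, 8.01 and 7.23, 5.81-fold, adjusted p = 6.23e-09), Hopx (4.15-fold), Grhl1 (3.8-fold), Grhl2 (2.72-fold), Trp63 and the epithelial splicing factors Esrp1 (3.23-fold) and Esrp2 (2.57-fold). Esrp1, Grhl2 and Trp63 lost their calls without E14.5 array 3. The surface ectoderm factor Tfap2a was at 9.67, 10.64 and 10.39 at E15.5, against 10.09, 10.02 and 7.92 at E14.5, and was not called. Elf3 (0.92), Ovol1 (0.87), Klf3 (0.85) and Mycl (0.62) had adjusted p between 0.0145 and 0.000102 but changed less than 2-fold.

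**Figure D2:**
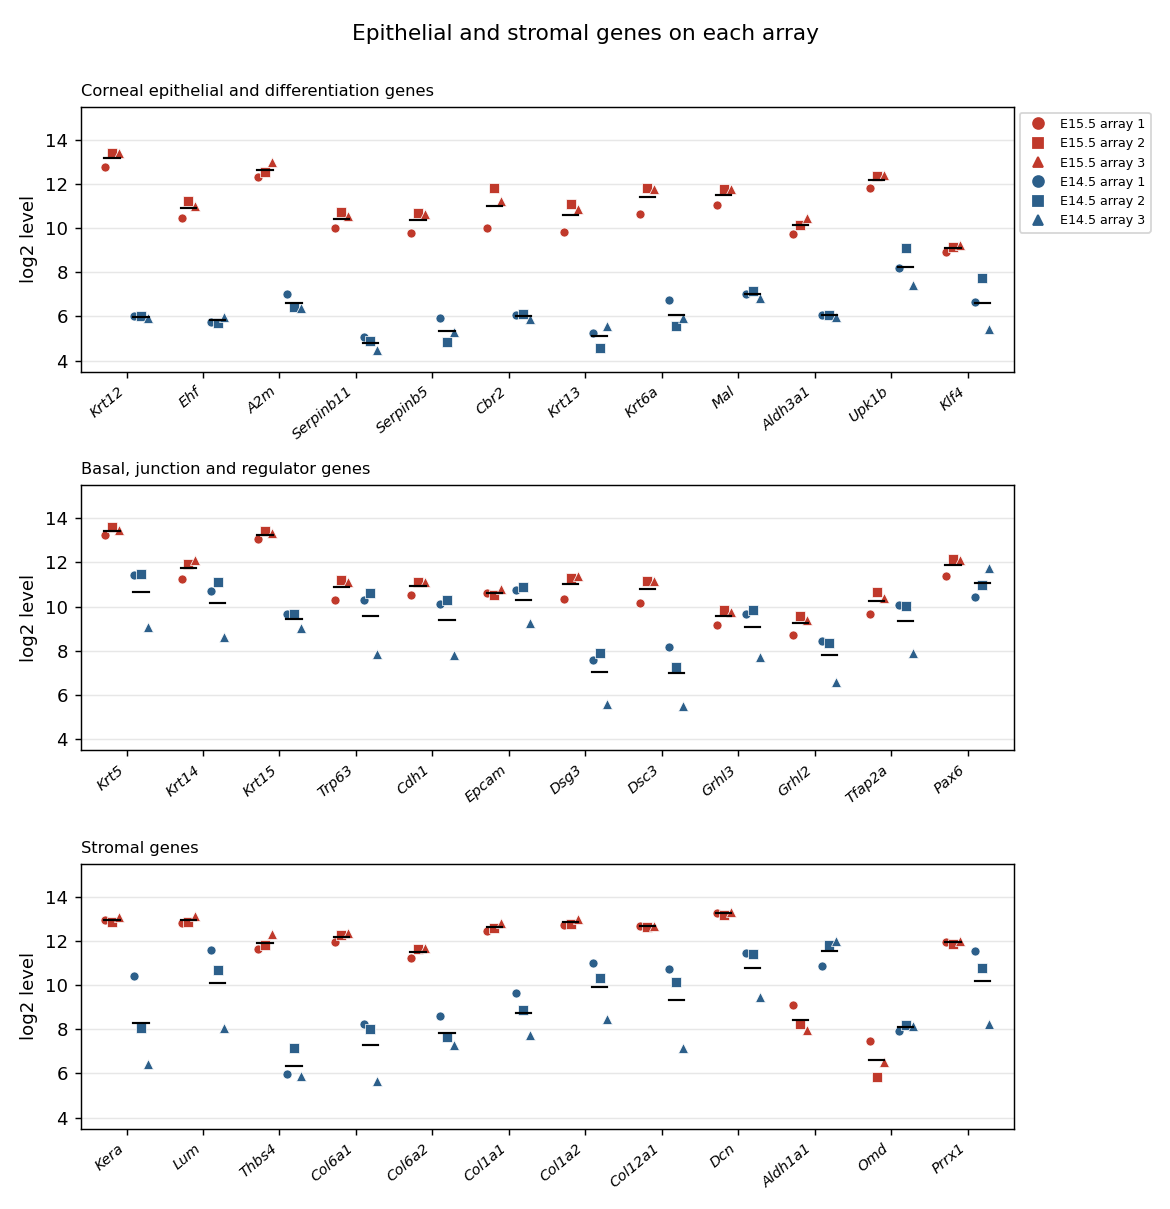
Log2 level (y axis) of 36 epithelial and stromal genes on each array, E15.5 in red and E14.5 in blue, with circles, squares and triangles for arrays 1, 2 and 3 and black bars for the mean of 3 arrays. Krt12 stood at 12.75 to 13.38 at E15.5 against 5.92 to 6.04 at E14.5, Trp63 and Epcam were lowest on E14.5 array 3, and Kera fell into 3 separate levels on the E14.5 arrays.

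Most of the stromal programme was also higher at E15.5. Of 21 genes of the corneal stroma and keratan sulfate, 12 were called higher and 2 lower, with a median change of 1.61. Kera, keratocan, the proteoglycan core protein that marks keratocytes, was at 12.96, 12.85 and 13.07 at E15.5, against 10.40, 8.08 and 6.41 at E14.5 (25.3-fold, adjusted p = 5.69e-07). The E15.5 arrays lay within 0.3 log2 units of each other, whereas the E14.5 arrays differed by about 4 units. Lum, lumican, the proteoglycan needed for fibril spacing and corneal clarity in mice, was at 12.81, 12.85 and 13.13 against 11.57, 10.67 and 8.06 (7.12-fold, adjusted p = 9.34e-05). Kera and Lum thus had the same order on the E14.5 arrays, array 1 highest and array 3 lowest, and both stayed called without array 3.

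Thbs4, a matrix thrombospondin, was the stromal gene with the largest change, at 11.62, 11.84 and 12.33 at E15.5, against 5.96, 7.17 and 5.88 at E14.5 (48.2-fold, adjusted p = 5.72e-12). Unlike Kera it was low on all 3 E14.5 arrays. Chst5, whose product sulfates keratan sulfate in mouse cornea, was at 10.29, 10.48 and 10.69 against 8.05, 7.81 and 7.32 (6.77-fold). Decorin, Dcn, was at 13.25, 13.16 and 13.32 against 11.45, 11.43 and 9.47 (5.51-fold). The other small leucine-rich proteoglycans Bgn (10.2-fold), Podn (6.37-fold), Fmod (4.51-fold), Ogn (3.45-fold), Aspn (3.45-fold) and Ecm2 (3.06-fold) were higher, Aspn with overlapping ages and no call without E14.5 array 3. B4galt1, a galactosyltransferase of keratan sulfate chains, was called (2.64-fold) but not without that array.

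The 2 stromal genes called lower were Aldh1a1 and Omd. Aldh1a1, an enzyme that makes retinoic acid and a known crystallin of keratocytes in some mammals, was at 9.09, 8.26 and 7.95 at E15.5, against 10.85, 11.82 and 11.99 at E14.5 (change -3.12, adjusted p = 6.2e-05). Omd, osteomodulin, was at 7.46, 5.83 and 6.50 against 7.94, 8.18 and 8.15 (change -1.50, adjusted p = 0.000741). Aldh1a1 was higher on E14.5 arrays 2 and 3, which were also the arrays rich in lens RNA described below, and the part of lens in this difference was not tested.

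Most collagens and matrix partners on the list were higher as well. Of 31 genes of fibrillar collagens and associated matrix, 21 were called higher and none lower (median change 1.72), against 18 higher and 1 lower without E14.5 array 3. Collagen VI, a microfibril-forming collagen of the corneal stroma, changed in each of the 3 chains on the list. Col6a1 was at 11.95, 12.27 and 12.34 at E15.5, against 8.22, 8.02 and 5.65 at E14.5 (29.7-fold, adjusted p = 1.39e-08), Col6a3 changed 21.8-fold and Col6a2 12.6-fold. Of collagen I, the main fibril-forming collagen, Col1a1 was at 12.47, 12.60 and 12.79 against 9.66, 8.85 and 7.74 (14.6-fold, adjusted p = 1.08e-07) and Col1a2 at 12.73, 12.78 and 13.00 against 11.01, 10.32 and 8.45 (7.52-fold). In these genes the E15.5 arrays nearly coincided and E14.5 array 3 was the lowest. The ages did not overlap, as in 1024 of the 1057 genes called higher.

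The collagen V genes that start fibrils, Col5a1 (4.58-fold) and Col5a2 (10.7-fold), the fibril-associated collagens Col12a1 (9.97-fold) and Col14a1 (15.7-fold), Col24a1 (8.02-fold), Col3a1 (6.16-fold) and Col11a1 (5.76-fold) were higher as well. Thbs2 was at 11.48, 11.41 and 11.60 at E15.5, against 7.40, 7.42 and 6.27 at E14.5 (22.1-fold). Tgfbi, the gene mutated in human stromal corneal dystrophies, was at 10.07, 10.57 and 10.53 against 9.24, 8.45 and 7.47 (4.01-fold, adjusted p = 1.82e-05). The fibronectin gene Fn1 (3.29-fold) and Sparc (2.46-fold, not called without E14.5 array 3) changed less. Vcan, the large proteoglycan versican of provisional matrix, was at 10.75, 10.14 and 10.66 against 11.77, 11.57 and 9.70. It was not called with all arrays (-0.50) and was the gene called lower without E14.5 array 3 (-1.15).

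Genes for making and crosslinking collagen rose with it. Of 21 such genes 14 were called higher and none lower (median change 1.22). The secretory-pathway transcription factor Creb3l1 was at 10.18, 10.04 and 10.05 at E15.5, against 7.06, 7.38 and 6.16 at E14.5 (9.31-fold, adjusted p = 1.71e-07). The lysyl hydroxylase Plod1 was at 10.38, 10.36 and 11.05 against 7.67, 7.71 and 7.23 (8.34-fold). P3h1, a prolyl hydroxylase (8.2-fold), Pcolce, an enhancer of procollagen cleavage (6.41-fold), Loxl1, a lysyl oxidase (4.71-fold), and Crtap, the partner of P3h1 (4.01-fold), were higher too. Each of these 6 stayed called without E14.5 array 3. None of them overlapped between the ages, which also held for 1024 of the 1057 genes called higher.

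Regulators of the periocular mesenchyme, from which keratocytes come, differed from the matrix genes they precede. Of 19 genes 5 were called higher and 1 lower (median change 0.41), and without E14.5 array 3 there were 2 higher and 1 lower. Prrx1 was at 11.96, 11.85 and 11.98 at E15.5, against 11.54, 10.76 and 8.24 at E14.5 (3.37-fold), and lost its call without array 3, as did Twist1 and Tfap2b. Foxc1, a forkhead factor mutated in anterior segment disease, was at 9.18, 9.23 and 9.00 against 8.62, 7.62 and 5.83 (3.43-fold) and Twist2 at 11.25, 11.48 and 11.72 against 10.56, 9.93 and 8.30 (3.7-fold), and both stayed called. Tbx15 was lower, at 6.97, 6.74 and 6.09 against 9.42, 10.10 and 7.09 (change -2.27, adjusted p = 0.00927). Of 11 corneal endothelium genes 3 were called higher, namely the water channel Aqp1 (10.48, 10.65 and 10.93 against 7.49, 6.34 and 5.62, 18.5-fold), Col8a1 (3.28-fold) and the bicarbonate transporter Slc4a4 (2.13-fold), of which only Aqp1 stayed called without E14.5 array 3, and 2 lower, the carbonic anhydrase gene Car2 (-1.49) and Cdh2 (-2.49).

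Signalling genes were called in smaller numbers than matrix genes, and several calls rested on E14.5 array 3. The shares over all genes were 5.3% higher and 2.26% lower. Of 36 Wnt ligands, receptors and antagonists, 4 were called higher and none lower. Among them Dkk2, a Wnt antagonist that mouse corneal epithelium needs to keep its fate, was at 12.65, 12.33 and 12.65 at E15.5, against 11.89, 10.42 and 8.12 at E14.5 (5.28-fold), and Wnt5a changed 4.01-fold, whereas Axin2 and Fzd6 lost their calls without E14.5 array 3. Of 33 BMP and TGF-beta genes, 5 were called higher and none lower, against 4 higher and 2 lower without E14.5 array 3, and they were led by Bmp3 at 9.06, 9.20 and 9.74 against 5.93, 5.67 and 5.35 (12.8-fold, adjusted p = 2.73e-09). Of 27 EGF and FGF ligands and receptors, 8 were called higher and 3 lower, against 4 and 1 without E14.5 array 3. The receptor gene Erbb2 was at 9.66, 10.04 and 10.13 against 8.60, 8.71 and 7.19 (3.43-fold), and Egfr, at 10.51, 10.44 and 10.60 against 10.36, 9.60 and 7.45, lost its call without array 3. The retinoid list of 17 genes had 4 higher, Cyp26a1, Rarg, Dhrs3 and Rxra, and Aldh1a1 lower, and without E14.5 array 3 only Cyp26a1 of the 4 stayed called.

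Some enzymes that handle aldehydes and oxidants rose in a way that did not rest on E14.5 array 3. Of 28 genes 11 were called higher and none lower (median change 0.46), and each of the 11 was past 2-fold against every E14.5 array. Aldh1a1, called lower above, belongs to the stroma and retinoid lists and is not counted here. Cbr2, a carbonyl reductase, was at 10.01, 11.81 and 11.23 at E15.5, against 6.04, 6.09 and 5.90 at E14.5 (32.1-fold, adjusted p = 9.25e-12). Adh7, a retinol and alcohol dehydrogenase of upper digestive and corneal epithelium, was at 8.98, 9.70 and 9.59 against 4.52, 6.77 and 5.67 (13.6-fold). Adh1 was at 12.02, 12.37 and 12.37 against 9.12, 9.31 and 7.50 (12.2-fold). Cbr3 (4.23-fold), Gsto1 (3.73-fold) and Gsta3 (3.73-fold) followed.

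Of 17 circadian clock genes 5 were called higher and none lower, led by Hlf, an output factor of the clock, at 10.79, 11.37 and 11.12 at E15.5, against 7.53, 8.39 and 6.96 at E14.5 (11-fold, adjusted p = 4.19e-09). Bhlhe40 (3.13-fold), Nr1d2 (2.41-fold), Bhlhe41 (2.35-fold) and Per1 (2.08-fold) were the others. The hour of collection is not given in the labels. Of 25 genes of glycolysis and the hypoxia response 2 were called higher, the oxygen sensor Egln3 at 10.24, 11.19 and 11.12 against 7.38, 7.13 and 6.93 (13-fold) and Aldoc (2.76-fold). Of 19 genes of interferon response and antigen presentation 2 were, Ifitm1 (8.75-fold) and Psmb8 (2.24-fold). Over all genes 5.3% were called higher, so these small counts say little about either list.

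Cell cycle genes moved the other way and did so almost as a block. Of 48 measured genes 40 were called lower and none higher, with a median change of -1.61, and 35 of them were past 2-fold against each E14.5 array alone. Without E14.5 array 3, 37 were lower. The mean level of the list was 8.89, 8.22 and 8.45 at E15.5, against 9.89, 9.96 and 10.32 at E14.5. Bub1, a kinase of the spindle checkpoint, was at 8.65, 7.48 and 8.18 at E15.5, against 10.13, 10.48 and 10.90 at E14.5 (change -2.40, adjusted p = 1.36e-05). Rrm2, the regulated subunit of ribonucleotide reductase, was at 8.52, 7.67 and 8.49 against 10.31, 10.56 and 10.94 (change -2.38, adjusted p = 6.41e-09). E15.5 array 1 was the highest of its age for both genes and still below every E14.5 array. The replication factor Gins1 (-2.26), the spindle motor Kif11 (-2.23), the survivin gene Birc5 (-2.19) and the replication licensing factor Cdc6 (-2.18) were lower too. The list of 20 cell cycle inhibitors and exit genes also holds Ccnd1, a G1 cyclin gene that drives the cycle. Of the 20, 2 were higher, Gadd45b (2.62-fold) and the pocket protein gene Rbl2 (2.32-fold), and 2 lower, Ccnd1 (-1.79) and Gadd45a (-1.97).

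The miR-17-92 cluster, a group of microRNAs that share 1 transcript and are known to promote proliferation, is shown beside the cell cycle. These arrays measure the gene or precursor, not the mature microRNA. Mir17 was at 6.78, 7.13 and 6.86 at E15.5, against 8.08, 8.11 and 8.13 at E14.5 (change -1.18, adjusted p = 1.51e-05), and Mir18 at 5.74, 6.61 and 6.52 against 7.38, 7.37 and 7.30 (change -1.06, adjusted p = 0.0102). The E14.5 arrays nearly coincided for both. They did not overlap with E15.5, as in 415 of the 450 genes called lower. The host gene Mir17hg (-0.95), Mir19b-1 (-0.80), Mir20a (-0.52) and Mir19a (-0.48) were not called. Mir92-1, another gene of the cluster, was not among the named genes measured. Of 297 measured microRNA genes 4 were called higher and 5 lower, against shares of 5.3% higher and 2.26% lower over all genes. The mature sequences from RefSeq, on chromosome 14, have the seed (bases 2 to 8) in capitals.
mmu-miR-17-5p: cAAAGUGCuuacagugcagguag
mmu-miR-20a-5p: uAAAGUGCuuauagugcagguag
mmu-miR-18a-5p: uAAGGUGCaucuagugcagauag
mmu-miR-19a-3p: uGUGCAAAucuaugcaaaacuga
mmu-miR-19b-3p: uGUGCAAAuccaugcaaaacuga
The first pair of these shares the seed AAAGUGC and the last pair the seed GUGCAAA, while miR-18a-5p has AAGGUGC.

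Lens crystallins made up 9 of the 12 largest decreases, and the E14.5 arrays differed among themselves. Of 15 crystallin genes 12 were called lower and none higher (median change -4.13). The mean level of the list was 7.50, 7.48 and 8.04 at E15.5, against 9.49, 12.81 and 12.83 at E14.5. Crystallins held 0.0337%, 0.0358% and 0.0397% of the summed intensity of all named genes at E15.5, against 0.128%, 1.57% and 1.44% at E14.5. By list mean and by share, E14.5 array 1 was thus nearer to E15.5 than to the other E14.5 arrays. Single genes differed in this. Cryga (11.14), Crygd (10.88), Crygc (11.44) and Cryba1 (11.02) on array 1 were nearer to the other E14.5 arrays. Crygb, Cryba4, Crybb1, Crybb3 and Cryaa on array 1 were nearer to E15.5. Without E14.5 array 3 the 12 calls stood.

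Cryaa, the alpha-crystallin of lens cells, was at 8.29, 8.51 and 8.40 at E15.5, against 9.44, 13.97 and 14.00 at E14.5 (change -4.07, adjusted p = 0.00186). Cryga, a gamma-crystallin of lens fibres, was at 4.55, 4.38 and 8.54 against 11.14, 14.70 and 14.49 (change -7.62, adjusted p = 6.19e-05), and Crygd at 5.56, 5.61 and 6.95 against 10.88, 14.49 and 14.70 (change -7.32). For both, E15.5 array 3 was above the other E15.5 arrays. The changes were -5.61 for Crygc, -5.27 for Cryba4, -5.25 for Crygb, -5.00 for Cryba1, -4.33 for Crybb1, -4.13 for Crybb3, -3.71 for Crygn, -2.81 for Cryba2 and -2.70 for Crygf. Crygs, at 7.46, 7.57 and 7.68 against 7.31, 11.31 and 10.88, was not called (adjusted p = 0.115), nor was Crybb2 (-0.22). Cryab, which is made outside the lens too, was at 10.21, 10.37 and 10.31 against 9.25, 11.77 and 10.60 (-0.24). No crystallin gene was at the floor of 4 on any of the 6 arrays.

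The promoters of 5 gamma-crystallin genes called lower are shown for what they share. Crygn, also called lower, and Crygs, not called, are not shown, and both motifs together were not looked up for them. The 110 bases before the RefSeq start (GRCm38.p6, 5′ to 3′ on the strand of the gene) have TTTGTG and TATATA in capitals. Their positions are chr1:65103364-65103473 for Cryga, chr1:65082291-65082400 for Crygb, chr1:65073533-65073642 for Crygc and chr1:65063441-65063550 for Crygd, all on the minus strand, and chr1:65926412-65926521 on the plus strand for Crygf.
Cryga: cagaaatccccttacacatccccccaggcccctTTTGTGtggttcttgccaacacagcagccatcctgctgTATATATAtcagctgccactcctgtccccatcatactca
Crygb: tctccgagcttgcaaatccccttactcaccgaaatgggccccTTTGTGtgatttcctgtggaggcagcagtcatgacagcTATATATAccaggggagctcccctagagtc
Crygc: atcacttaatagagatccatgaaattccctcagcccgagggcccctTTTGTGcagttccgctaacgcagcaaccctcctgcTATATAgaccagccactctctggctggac
Crygd: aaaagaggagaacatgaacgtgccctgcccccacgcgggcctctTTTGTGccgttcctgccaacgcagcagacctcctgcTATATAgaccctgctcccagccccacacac
Crygf: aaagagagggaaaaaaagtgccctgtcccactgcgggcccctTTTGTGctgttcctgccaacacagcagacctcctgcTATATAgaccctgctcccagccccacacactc
These motifs were chosen after reading the sequences, so their presence in 5 of 5 is a description. On the gene strand both occur in 35 of 27025 mouse promoters of this length (0.13%), these 5 genes included. In Cryga and Crygb the TATATA match occurs at overlapping positions.

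Some other lens genes were lower too. Of 20 genes of lens fibre membrane, cytoskeleton and other lens roles, 5 were called lower and 1 higher. Lim2, a fibre membrane protein, was at 7.12, 7.06 and 7.08 at E15.5, against 7.25, 11.15 and 10.87 at E14.5 (change -2.67, adjusted p = 0.000906). Mip, the lens water channel, was at 7.20, 7.31 and 7.42 against 7.67, 10.03 and 9.60 (-1.79), and Prox1, a lens fibre transcription factor, at 7.68, 7.37 and 7.67 against 8.05, 10.95 and 9.65 (-1.97). Grifin (8.15, 8.18 and 8.09 against 8.12, 10.97 and 9.81) and Caprin2 (8.29, 8.08 and 7.88 against 8.69, 10.00 and 9.81) had the same shape, within 0.7 log2 units of E15.5 on array 1 and higher on arrays 2 and 3. The lens epithelial factor Foxe3 (7.82, 7.79 and 7.84 against 8.00, 7.83 and 7.70) did not follow. Hspb1, a small heat shock protein gene that lens and epithelia share, was higher at 11.21, 11.96 and 11.97 against 9.74, 9.37 and 7.97 (6.43-fold).

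Embryonic globins were high on all 3 E14.5 arrays. The 3 embryonic globins, which the primitive red cells of the yolk sac make, were all called lower. Hba-x was at 7.98, 7.54 and 7.41 at E15.5, against 14.35, 14.35 and 13.65 at E14.5 (change -6.48, adjusted p = 1.11e-16). Hbb-y was at 10.21, 6.96 and 6.97 against 14.70, 14.21 and 14.21 (change -6.33, adjusted p = 2.02e-07), so E15.5 array 1 stood above the other E15.5 arrays. Hbb-bh1 was at 6.50, 6.23 and 5.93 against 11.85, 12.40 and 11.001 (change -5.53, adjusted p = 4.29e-13). Together the 3 genes held 0.0130%, 0.00332% and 0.00261% of summed intensity at E15.5, against 0.421%, 0.441% and 0.306% at E14.5, and the calls stood with each E14.5 array used alone.

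The other erythroid genes that were measured moved much less. Only 14 of 25 listed were measured, so the list covers red cell RNA only in part. Of 14 such genes 2 were called lower, Tfrc, the transferrin receptor gene that every dividing cell uses (8.06, 7.73 and 7.79 at E15.5, against 9.85, 10.27 and 10.12 at E14.5, change -2.22, adjusted p = 9.03e-08), and Alas2, the heme synthesis enzyme of red cells (9.55, 8.52 and 8.47 against 10.40, 10.58 and 9.65, change -1.36). The red cell anion exchanger gene Slc4a1 was at 8.16, 7.93 and 7.92 against 8.91, 9.17 and 8.45 (-0.84, adjusted p = 8.58e-05) and stayed under 2-fold. The erythroid factors Gata1 (7.75, 7.69 and 7.67 against 8.01, 7.70 and 7.70) and Klf1 (-0.16) were not called.

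Neural genes were high on E14.5 array 3. Of 29 neuronal genes 12 were called lower and 2 higher (median change -0.73), but without E14.5 array 3 there were 5 lower (Nefl, Nefm, Stmn2, Tubb3 and Uchl1) and 2 higher. The list held 0.101%, 0.0700% and 0.0698% of summed intensity at E15.5, against 0.113%, 0.117% and 0.594% at E14.5. Elavl4, an RNA-binding protein of neurons, was at 6.90, 6.84 and 6.82 at E15.5, against 7.61, 7.72 and 13.07 at E14.5, and its change of -2.62 (adjusted p = 0.0155) was -0.81, and not called, without array 3. Ina, a neuronal intermediate filament gene, was at 8.77, 8.11 and 7.68 against 8.85, 8.74 and 13.50 and was not called (adjusted p = 0.0681). Stmn2, a growth cone protein gene, was at 8.44, 6.64 and 6.02 against 8.92, 9.91 and 13.04 (change -3.59, adjusted p = 0.0015). Of the same kind were Elavl2 (7.62, 7.48 and 7.07 against 7.98, 8.29 and 11.10), Dcx (8.51, 6.93 and 7.19 against 7.89, 8.12 and 11.14) and Syt1 (7.45, 7.61 and 7.60 against 7.81, 7.74 and 10.76, not called).

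Some neuronal genes were above E15.5 on every E14.5 array. Nefm was at 8.82, 6.59 and 6.03 at E15.5, against 10.26, 9.53 and 12.11 at E14.5 (change -3.49, adjusted p = 0.000157), and Tubb3 at 9.76, 7.80 and 7.52 against 10.55, 10.79 and 12.63 (change -2.96). Snap25 (8.41, 6.73 and 6.68 against 8.95, 9.55 and 11.48) and Isl1 (7.36, 6.90 and 7.06 against 8.35, 8.30 and 10.62) were also highest on E14.5 array 3, and neither was called without it. For Nefm, Tubb3, Snap25 and Stmn2, E15.5 array 1 was at least 1.5 log2 units above the other E15.5 arrays. The 2 neuronal genes called higher were Ntrk2, a neurotrophin receptor gene (9.80, 9.44 and 10.27 against 6.82, 8.10 and 8.17, 4.41-fold), and L1cam (2.03-fold). Gap43, a gene of growing axons, was at 11.47, 11.29 and 11.30 against 10.63, 10.81 and 12.43 and was not called (0.06).

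Of 23 genes of retinal progenitors 4 were called lower and none higher (median change -0.21), against 1 lower (Six6) and 1 higher (Hes1) without E14.5 array 3. Fgf15, a signal of the embryonic retina, was at 8.69, 8.62 and 8.17 at E15.5, against 8.83, 9.60 and 13.23 at E14.5 (change -2.06, adjusted p = 0.0133). Six6, an optic vesicle factor, was at 6.85, 6.71 and 6.36 against 8.43, 9.11 and 11.79 (change -3.14, adjusted p = 0.000174). Neurod1 was at 7.45, 6.79 and 4.89 against 7.55, 7.84 and 10.93, and Otx2 at 9.21, 6.53 and 5.81 against 9.13, 8.38 and 10.31. Neurod4, at 7.30, 5.64 and 6.32 against 7.02, 6.67 and 10.62, was not called (adjusted p = 0.112). Genes of the early retina such as Rax (7.05, 7.11 and 6.91 against 6.84, 7.07 and 7.92) and Lhx2 (7.43, 7.70 and 7.17 against 7.40, 7.65 and 7.80) were not called, with Rax highest on E14.5 array 3. Of 15 Schwann cell and crest glia genes 1 was higher, Erbb3, which was not called without E14.5 array 3, and 1 lower, Fabp7, at 10.00, 9.42 and 9.57 against 11.17, 11.03 and 11.13 (change -1.45), while Sox10 was at 8.16, 8.19 and 7.85 against 8.08, 8.21 and 8.15. None of the lens, globin, neuronal and retinal genes was at the floor on any of the 6 arrays. Cryga came near it on E15.5 arrays 1 (4.55) and 2 (4.38).

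**Figure D3:**
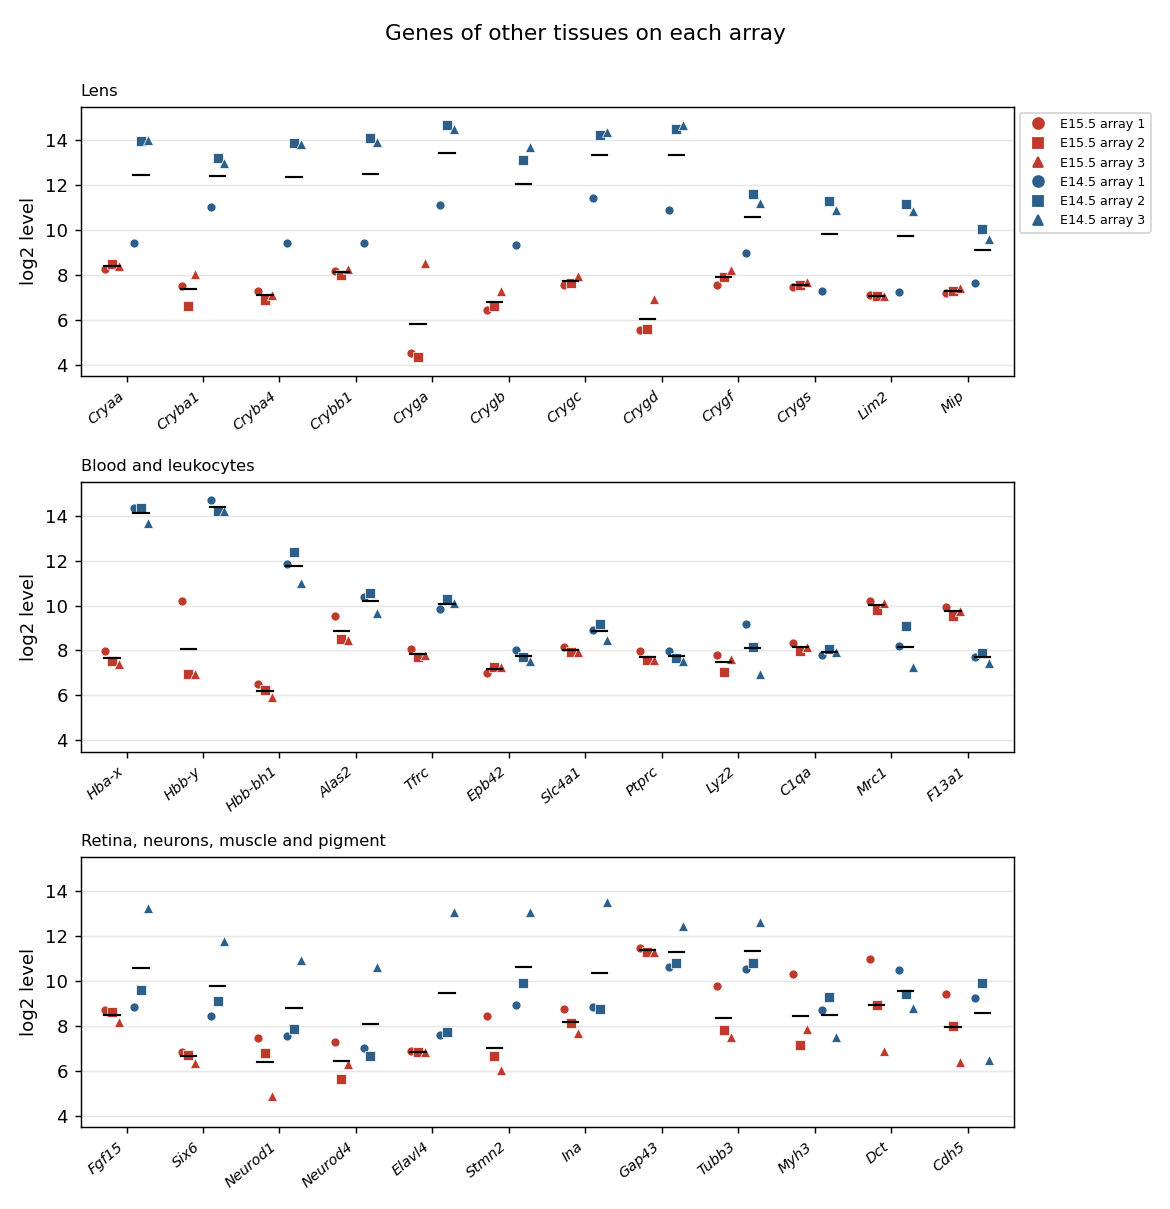
Log2 level (y axis) of 36 genes of other tissues on each array, E15.5 in red and E14.5 in blue, with circles, squares and triangles for arrays 1, 2 and 3 and black bars for the mean of 3 arrays. Lens genes were high on E14.5 arrays 2 and 3, embryonic globins on all 3 E14.5 arrays, and Elavl4, Ina and Fgf15 on E14.5 array 3 alone.

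Among the E15.5 arrays, the muscle, pigment and vessel lists had their highest mean level on array 1. E14.5 arrays reached similar levels. The pigment list was at 8.93, 8.13 and 7.67 at E15.5, against 8.99, 8.44 and 8.21 at E14.5. The vessel list was at 8.40, 7.87 and 7.55 against 8.17, 8.34 and 7.34. The mean level of 26 skeletal muscle genes was 9.78, 7.84 and 8.32 at E15.5, against 9.03, 9.51 and 8.49 at E14.5, and 1 gene was called higher and 1 lower. Picked after their values were seen, the embryonic myosin gene Myh3 was at 10.32, 7.14 and 7.88 against 8.72, 9.30 and 7.48, and the pigment enzyme gene Dct at 10.98, 8.94 and 6.87 against 10.48, 9.41 and 8.79. The endothelial cadherin gene Cdh5, likewise picked, was at 9.43, 8.00 and 6.37 against 9.24, 9.91 and 6.49. None of these was called with all arrays, and Cdh5 was called lower (-1.65) without E14.5 array 3. No gene of 14 in the melanocyte and pigment list or of 14 in the cartilage and bone list was called, and of 19 vascular endothelial genes 1 was higher, Erg, at 10.85, 10.86 and 11.27 against 9.84, 8.71 and 5.69 (7.53-fold). Of 11 pericyte and smooth muscle genes Pdgfrb was higher (2.23-fold, not called without E14.5 array 3) and Acta2 lower (-1.72). Shares over all genes were 5.3% higher and 2.26% lower. Of 18 genes of macrophages and other leukocytes 2 were higher, the tissue macrophage genes F13a1, at 9.95, 9.55 and 9.75 against 7.72, 7.90 and 7.45 (4.16-fold), and Mrc1 (3.62-fold), while the panleukocyte gene Ptprc was at 7.96, 7.59 and 7.58 against 7.99, 7.69 and 7.53.

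**Figure D4:**
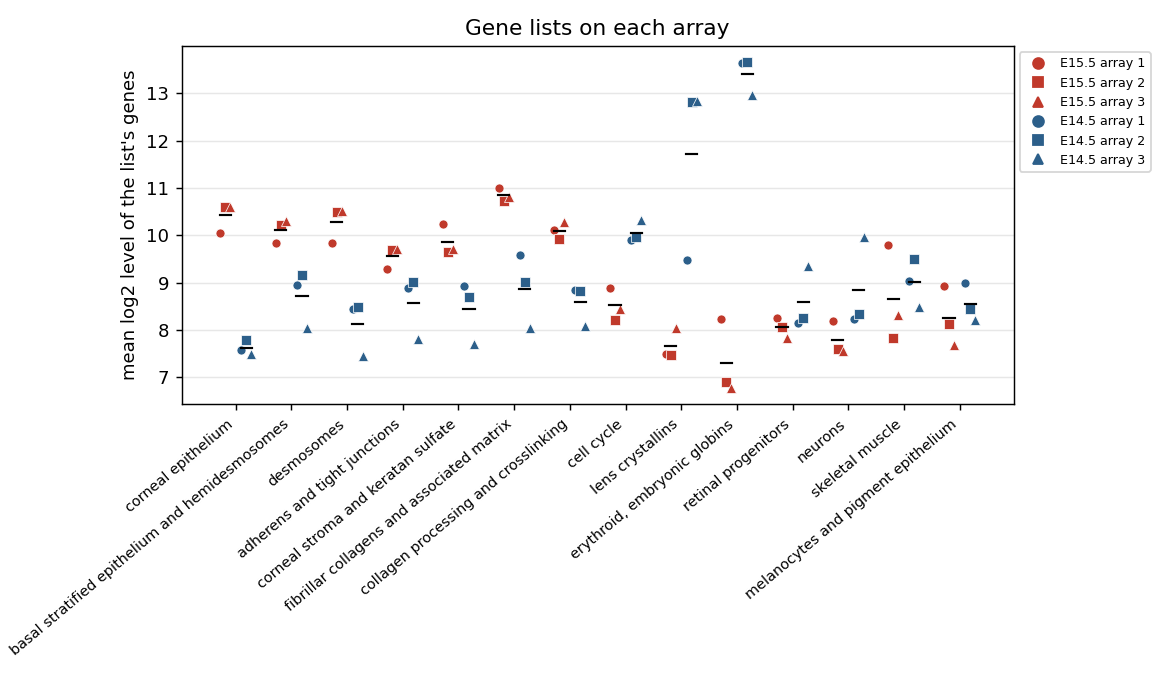
Mean log2 level over the genes of 14 lists (y axis) on each array, E15.5 in red and E14.5 in blue, with circles, squares and triangles for arrays 1, 2 and 3 and black bars for the mean of 3 arrays. The corneal epithelium list stood at 10.05 to 10.60 at E15.5 against 7.48 to 7.78 at E14.5, while the crystallin list split E14.5 array 1 (9.49) from arrays 2 (12.81) and 3 (12.83).

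How much of the difference rested on a single E14.5 array was measured by setting the E15.5 mean against each of them alone. Of the 1057 genes called higher, 790 were past 2-fold against array 1, 790 against array 2 and 966 against array 3, and 575 (54.4%) against all 3. Of the 450 called lower these counts were 299, 376 and 416, and 254 (56.4%) were past 2-fold against all 3. Only array 3 was 2-fold away from E15.5 for 125 of the higher and 54 of the lower genes. When calls were made anew without E14.5 array 3, 801 of the 1057 higher and 342 of the 450 lower genes were called again.

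Lists differed in the same respect. The median change of the corneal epithelium list was 2.16 against E14.5 array 1, 1.75 against array 2 and 3.17 against array 3, and that of the cell cycle list -1.41, -1.43 and -1.93. The fibrillar collagen list had medians of 0.90, 1.66 and 2.78, and the stroma list 1.30, 1.07 and 2.37. For crystallins the medians were -1.26, -5.57 and -5.60, for embryonic globins -6.65, -6.18 and -6.01, and for neurons -0.27, -0.35 and -1.70. The corneal epithelium, stroma and fibrillar collagen lists were thus higher at E15.5 against each E14.5 array, by most against array 3, the array that was also highest in neuronal and retinal RNA. The part of that RNA in the lower epithelial and stromal levels of array 3 was not tested.

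**Figure D5:**
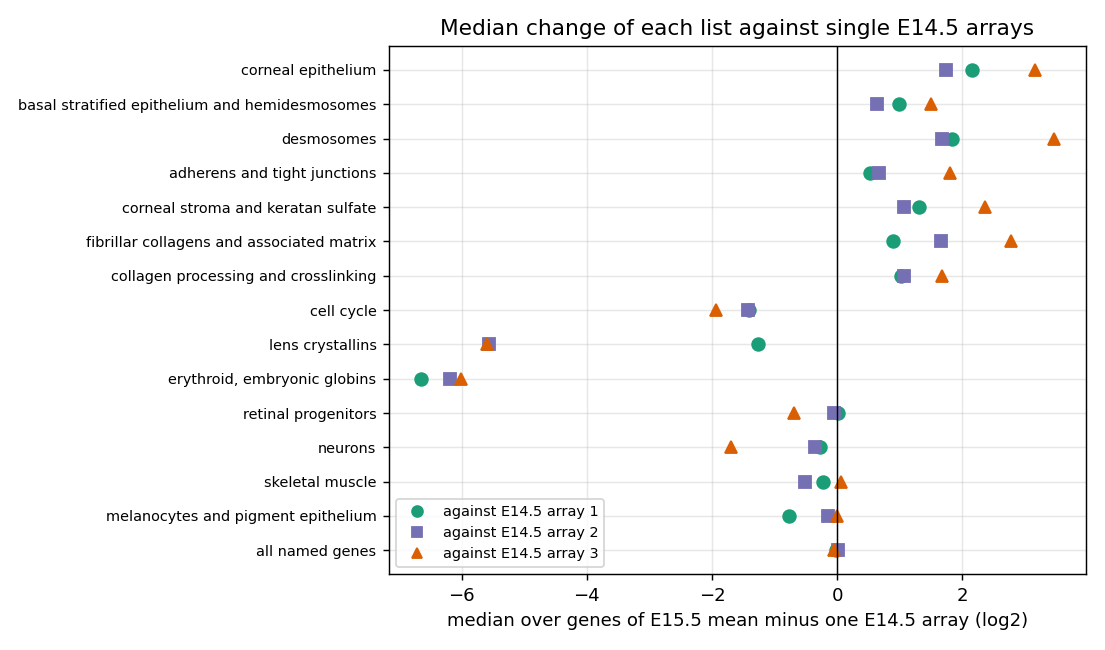
Median over the genes of each list of the E15.5 mean minus a single E14.5 array (x axis, log2), for 14 lists and for all named genes (y axis), with green circles, purple squares and orange triangles for E14.5 arrays 1, 2 and 3. The crystallin medians were -1.26, -5.57 and -5.60, whereas those of the cell cycle list lay between -1.41 and -1.93 and those of the corneal epithelium list between 1.75 and 3.17.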

How the data were processed

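Total RNA of whole cornea (Trizol, per the labels' protocols) was measured on Affymetrix Mouse Gene ST arrays. The deposited values are linear intensity values per probe set. The submitters' processing notes name PLIER 2.0 and Expression Console 1.1.1 of Affymetrix as the authors' tools. The sources used here do not say how arrays were normalized to each other, and the number of arrays limits the precision. From the deposited intensity values log2(value + 16) was computed, which shrinks the folds of dim genes, and the log2 levels were quantile-normalized over 27 arrays. After that step bright genes of equal rank have equal levels by construction. Only the 21789 probe sets annotated to 1 gene were used, out of 35556, since 1621 name several genes and 12146 name none. Symbols came from the platform annotation, updated through the RefSeq gene table of GRCm38.p6 (99.58% matched). A second probe set existed for 86 called genes and gave the same direction in 94.2%.

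Tests used limma 3.58.1 in R 4.3.3 (lmFit and eBayes over 9 groups, two-sided, Benjamini-Hochberg adjustment over 19938 genes). The procedure was also run on simulated arrays, with normal noise of equal spread on every array for a given gene. That run held no outlying array or attached tissue, so it does not speak to calls that rest on E14.5 array 3. Replicate numbers did not pair arrays: deviations of equal numbers correlated at 0.0017, -0.056 and -0.034. Genes named are the 12 largest increases and decreases among called genes that did not overlap between the ages, up to 6 called members of each list with the largest change, members of the lens, blood, neural, stromal and epithelial factor lists, and 8 chosen genes (Krt12, Ehf, Klf4, Pax6, Grhl3, Kera, Lum and Col1a1). The 37 lists, which share some genes, and the comparison itself were chosen with earlier results of these data known. Alternatives were other scalings, pseudocount, filters, fold limits, probe set rules, fits and array weights, each array left out, a replicate block, and, added after seeing the data, each E14.5 array alone and E15.5 arrays 2 and 3 against E14.5 arrays 1 and 2. Promoters and microRNA sequences are from RefSeq.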

Additional observations from a re-analysis of the deposited data

How the results depend on the processing

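Calls depended most on the fold limit, and also on E14.5 array 3 and on which arrays entered the fit. Without a fold limit 5271 genes were called, 2994 higher and 2277 lower at E15.5, and at a limit of 4-fold 386, 288 and 98. With E14.5 array 3 as the only E14.5 array, chosen after seeing the data, 763 genes were lower, the lone array being assumed to vary like the other groups. Leaving out each array in turn gave 1289 to 1723 calls, 898 to 1165 higher and 391 to 558 lower. The replicate number as a replicate block over the 7 cornea ages gave 1465 calls, 1038 higher and 427 lower. With only the 6 arrays in the fit 1191 genes were called, and 1063 when these were also normalized alone. In the total, higher and lower counts these and the other alternatives stayed within 1.5 times. Counts of called list members were less stable. Of 74 such counts, 19 moved further than that without E14.5 array 3, and 19 with only the 6 arrays in the fit. Without E15.5 array 3, 11 did, and 24 with E15.5 arrays 2 and 3 against E14.5 arrays 1 and 2. Of 342 named genes 37 lost their call without E14.5 array 3 and 5 gained one, and 62 lost it with only the 6 arrays in the fit. Among named genes called with all arrays or under an alternative, 4 took the opposite sign there (uncalled genes changed sign too, up to 27 under 1 setting): Grifin with E14.5 array 1 alone (0.0195), Cyp26a1 (-0.0688) and Gap43 (-1.07) with E14.5 array 3 alone, and Stmn3 on its second-brightest probe set (0.16). The cause was not tested. With 3 arrays an age, changes under 2-fold and genes near the floor are poorly resolved.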

Other observations

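Outside the lists, called genes with a wide gap between the ages, a choice that makes all 3 E14.5 arrays low, included Ahnak2, at 10.59, 11.06 and 11.46 at E15.5, against 6.41, 6.97 and 6.16 at E14.5 (change 4.52, adjusted p = 2.47e-13 in limma), and Ptgs2, the inducible prostaglandin synthase, at 9.86, 10.22 and 10.97 against 6.26, 6.08 and 5.31 (change 4.47, adjusted p = 4.62e-10). Ndufa4l2, a mitochondrial gene induced by low oxygen, was at 10.09, 11.08 and 11.32 against 6.64, 6.08 and 6.79 (change 4.32). Gpha2, a glycoprotein hormone subunit gene known from limbal epithelium, was at 10.91, 11.43 and 11.22 against 7.74, 7.11 and 7.24 (change 3.82), and Slc26a7, an anion transporter gene, at 10.82, 10.83 and 11.08 against 7.92, 6.09 and 5.61 (change 4.38). Among decreases Hsd3b6, a steroid dehydrogenase gene, was at 6.88, 6.49 and 6.60 against 9.83, 10.59 and 9.58 (change -3.34, adjusted p = 8.98e-11), the chemokine gene Cxcl14 at 8.64, 8.51 and 8.33 against 11.96, 12.13 and 9.73 (change -2.77), and the forkhead factor gene Foxd1 at 6.93, 6.52 and 6.62 against 9.65, 10.35 and 11.61 (change -3.85). These genes are named because they lie outside the lists and were chosen after their values were seen.

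E14.5 array 1 carried a signal of its own. S100a8 (6.74, 6.86 and 6.89 at E15.5, against 12.35, 8.11 and 7.88 at E14.5) and S100a9 (7.20, 7.13 and 7.36 against 12.80, 8.77 and 9.32) were highest on it, by more than 3 log2 units over the other E14.5 arrays. These calprotectin genes are known from neutrophils, but not only from them. Both were called lower at E15.5 (changes -2.62 and -3.07, adjusted p 0.00796 and 0.00438 in limma). Of 7 further neutrophil genes, chosen like these after values were seen, Retnlg (9.44 on that array, 7.02 and 7.15 on the other E14.5 arrays), Camp (10.06, 9.11 and 8.83), Ngp (8.27, 7.91 and 7.63), Ltf and Cxcr2 were highest on E14.5 array 1 too, and none of the 7 was called with all arrays. Mpo and Elane were highest on other E14.5 arrays. Which cells gave this signal, and their part in other differences, was not tested.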
